A study of Mus musculus with 12 samples.

Results

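The mitotic spindle, kinetochore and G2/M gene set comprised 44 named genes, found by symbol among the 55401 Ensembl gene identifiers of the count files. All 44 passed the filter on low counts, as did 17569 genes in all. The genes were ordered by the step of division they serve: 9 early members for entry into mitosis and chromosome condensation, 24 middle members for the spindle, kinetochore and checkpoint, and 11 late members for anaphase, mitotic exit and cytokinesis. Cells reached these libraries as GFP-positive Neuro-2a cells, a mouse neuroblastoma line, sorted 48 hours after transfection of a GFP plasmid (1 µg) with 3 µg of plasmid for artificial microRNAs on a miR30 backbone. The 3 groups of 4 libraries differed in those microRNAs: a scramble sequence (miScramble), a pool of 3 against Rbmx (miRbmx) or a pool of 2 against Rbmxl1 (miRbmxl1). Rbmx encodes an X-linked RNA-binding protein of the hnRNP family, and Rbmxl1 is its intronless relative. All groups carried the GFP plasmid, the transfection reagent and the sort. Replicates are labelled biological, with no statement that they came from separate cultures, so the p-values below measure the spread between these libraries. Where the model includes the replicate number, they measure the spread left after differences between replicate numbers are removed.

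Cells pass from G2 into mitosis when cyclin A and cyclin B activate CDK1, aided by CDC25 phosphatases. Microtubules then capture chromosomes through kinetochores, the checkpoint proteins hold anaphase until capture is complete, and the anaphase-promoting complex ends mitosis by degrading securin and the cyclins. The messenger RNAs of these genes build up together in G2 and mitosis. Their promoters often hold a CHR element, read by the MuvB complexes with B-MYB or FOXM1, and CCAAT boxes, read by NF-Y. In a bulk sample of dividing cells, a larger share of cells in G2 and mitosis and more RNA per such cell cannot be told apart.

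Promoter sequences are shown for the 3 members called in the Rbmx knockdown below, since shared promoter elements are what the set is known for. The windows come from RefSeq on build GRCm38.p6 and hold the 250 bases before the annotated start and the first 50 bases from it. Each is written from 5′ to 3′ on the strand of the gene, with matches to TTTGAA and CCAAT in capitals.
Plk1, chr7:122159185-122159484 (+ strand): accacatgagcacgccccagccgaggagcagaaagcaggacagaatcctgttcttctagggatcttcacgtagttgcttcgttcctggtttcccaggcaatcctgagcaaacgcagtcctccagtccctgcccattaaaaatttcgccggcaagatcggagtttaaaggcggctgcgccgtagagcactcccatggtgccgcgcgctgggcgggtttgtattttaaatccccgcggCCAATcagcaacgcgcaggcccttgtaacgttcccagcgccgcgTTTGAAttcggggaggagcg
Ccnb2, chr9:70421505-70421804 (- strand): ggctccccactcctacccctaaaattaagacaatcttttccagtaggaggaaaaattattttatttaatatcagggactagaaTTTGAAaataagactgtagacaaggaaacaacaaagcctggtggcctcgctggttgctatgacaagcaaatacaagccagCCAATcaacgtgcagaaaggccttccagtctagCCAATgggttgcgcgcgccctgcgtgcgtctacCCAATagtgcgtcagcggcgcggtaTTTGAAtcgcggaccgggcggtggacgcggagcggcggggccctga
Pttg1, chr11:43425932-43426231 (- strand): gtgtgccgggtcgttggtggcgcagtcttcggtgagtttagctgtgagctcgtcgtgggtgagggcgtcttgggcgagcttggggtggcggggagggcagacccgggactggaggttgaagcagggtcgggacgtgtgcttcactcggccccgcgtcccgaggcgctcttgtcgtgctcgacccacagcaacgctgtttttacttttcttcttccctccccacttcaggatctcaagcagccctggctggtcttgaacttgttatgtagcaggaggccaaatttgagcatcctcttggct
The Plk1 window held 1 CCAAT match beginning 14 bases before the start site and 1 TTTGAA match beginning 30 bases after it. The Ccnb2 window held 3 CCAAT matches, beginning 87, 54 and 21 bases before the start, and TTTGAA matches beginning 167 bases before and 4 bases after it. Neither word occurred in the Pttg1 window on either strand. That window lies wholly inside the gene's span in GENCODE M21, because the RefSeq start it is built on is 270 bases inside the GENCODE start, so it holds no sequence upstream of the GENCODE gene and says nothing of that region.

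Windows were found for 35 of the 44 members, 37 windows in all, of which 4 lay wholly inside the gene's GENCODE span (Cdca8, Kif2c, Kif4 and Pttg1). The CHR word TTTGAA, its palindromic variant TTCGAA and the NF-Y word CCAAT were searched on both strands. The match to a CHR word and the match to an NF-Y word may share an end base. TTTGAA occurred in 26 of the 37 member windows (70.3%), against 17.9% of all 32851 windows of that length. TTCGAA occurred in 10.8% of member windows and 1.56% of all windows. CCAAT occurred in 29 member windows (78.4%) against 37.4% of all, and at least 2 CCAAT matches in 51.4% against 11.7%. Windows with CCAAT and either CHR word made up 67.6% of the members' windows and 7.52% of all windows. A match describes letters in a window and is not evidence of binding.

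**Figure D1:**
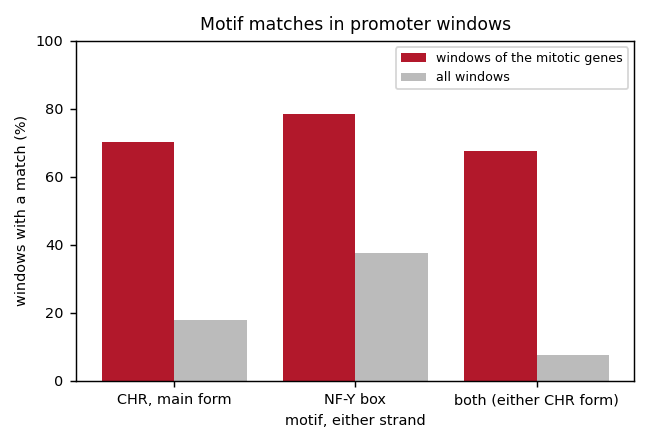
Share of promoter windows (percent, y axis) with a match to the main CHR word, the NF-Y box, or the NF-Y box together with either CHR form (x axis), for the 37 windows of the mitotic genes and all 32851 windows. The mitotic windows are higher in each pair of bars, at 70.3%, 78.4% and 67.6%.

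The libraries held 43.1 to 52.2 M reads in genes. Rbmx stood at 57.6 to 73.3 CPM (counts scaled to TMM-adjusted library size) in scramble and 22.2 to 32.6 in its knockdown, and Rbmxl1 at 31.3 to 36.7 and 12.3 to 16.7. Neither target overlapped between its groups. Among the neuroblastoma and sympathetic markers, 11 exceeded 1 CPM, and the summed level of the list ran from 1722 to 2245 in scramble, 1803 to 2357 in the Rbmx knockdown and 1822 to 2196 in the Rbmxl1 knockdown. Of 5 glial markers, 2 exceeded 1 CPM, and the list summed to 16.1 to 18.7 CPM in scramble, 12.9 to 20.0 in the Rbmx knockdown and 13.5 to 18.7 in the Rbmxl1 knockdown, with the astrocyte gene Aqp4 at 0 in every library. Of 3 endothelial markers, 1 exceeded 1 CPM, and the sums were 4.62 to 6.07, 5.23 to 7.82 and 4.77 to 7.73 CPM in the same order. The 5 fibroblast markers, 1 of them over 1 CPM, summed to at most 2.98 CPM, blood markers to at most 0.252 and epithelial ones to at most 0.460, with Hbb-bs, Epcam and Krt18 at 0 in every library.

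The 44 genes were transcribed at very different levels in scramble cells. Mean CPM ran from 8.93 for Cdc25c to 845 for Top2a, with a median of 63.4. Per kilobase of exon, Top2a, the topoisomerase that untangles chromosomes, was highest at 93.7 CPM per kb. Racgap1, the GTPase-activating subunit of centralspindlin, followed at 76.4, then the kinesin Kif18b at 47.5, Ccna2 at 36.1 and Ccnb1 at 34.7. Cdc25c was lowest at 1.81 and the set's median was 15.3. The members lay on 17 chromosomes, 8 of them on chromosome 2. In GENCODE M21, 21 members overlapped no other gene, 9 overlapped one on the same strand and 14 only one on the opposite strand. The strand setting of the counting is not given in the sources used here, so counts of overlapping members are uncertain. In 10 members at least 5% of 50-base words also occur in another gene, led by Ccnb1 at 42.1%, mostly shared with the pseudogene Ccnb1-ps. The share was 10.9% for Plk1, in part shared with Plk-ps1, and 0 for Ccnb2.

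In the Rbmx knockdown 3 of the 44 genes rose, in a model that includes the replicate number. These were Plk1, the Polo-like kinase that drives mitotic entry and spindle assembly, Ccnb2, a B-type cyclin partner of CDK1, and Pttg1, securin, the inhibitor of separase. The increases lay between 0.30 and 0.52 on the log2 scale. No member fell. Set beside 3 of 44 members, 8.35% of all 17569 genes were called, 4.16% higher and 4.19% lower, so the share of calls in the set was near the background. Point estimates were above 0 for 35 of the 44 members, against 50% of all genes, with a median log2 change of 0.08 against -0.00 for all genes. An unadjusted p under 0.05 was reached by 13 members, 10 higher and 3 lower, and by 24.9% of all genes. The 3 calls depend on the replicate term: without it none of the 44 was called by edgeR, 11 had an unadjusted p under 0.05 (10.9% of all genes did), and 0.00569% of all genes were called. The members' median log2 change was 0.08 in that fit too. The common dispersion, the spread estimated over all genes, was 0.0362 without the term and 0.0093 with it. DESeq2 with the replicate term called 6 members and 11.5% of all genes. By range, 3 members lay wholly above scramble in the Rbmx knockdown, Cdc25b, Aurka and Pttg1 (4.22% of all genes), and 1 wholly below it, Nuf2 (3.85%).

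Plk1 (chromosome 7, 122159439 to 122169873, plus strand, build GRCm38) measured 46.5, 51.8, 34.5 and 37.7 CPM in scramble replicates 1 to 4. Its values were 55.1, 57.8, 59.9 and 50.0 CPM in the Rbmx knockdown, and 54.1, 40.2, 54.2 and 43.7 CPM in the Rbmxl1 knockdown. The Rbmx values exceeded scramble in all 4 same-numbered pairs, and the ranges overlapped because scramble replicate 2 was above Rbmx replicate 4. The log2 change was 0.39 ± 0.11 (SE) with an edgeR adjusted p of 0.0386 in the Rbmx knockdown, and 0.325 was the adjusted p without the replicate term. In the Rbmxl1 knockdown the change was 0.18 ± 0.11 (adjusted p = 0.407).

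Ccnb2 (chromosome 9, 70407692 to 70421547, minus strand) measured 43.9, 44.9, 34.1 and 33.0 CPM in scramble. The Rbmx knockdown gave 46.4, 46.5, 53.0 and 44.6 CPM, and the Rbmxl1 knockdown 52.3, 44.6, 48.9 and 40.9 CPM. Scramble replicates 3 and 4 were the lowest of the 12 libraries. The change was 0.30 ± 0.09 in the Rbmx knockdown (adjusted p = 0.0440, and 0.391 without the replicate term). It was 0.26 ± 0.09 in the Rbmxl1 knockdown, where the adjusted p of 0.0951 was the lowest of any member by edgeR and DESeq2 gave 0.0463.

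Pttg1 (chromosome 11, 43420250 to 43426251, minus strand) was among the least abundant members, at 11.6, 12.8, 9.12 and 7.74 CPM in scramble. It stood at 13.5, 13.8, 18.3 and 14.0 CPM in the Rbmx knockdown, all above every scramble library. In the Rbmxl1 knockdown it stood at 11.9, 10.96, 19.5 and 11.3 CPM, with replicate 3 far above the others. The change was 0.52 ± 0.16 for Rbmx (adjusted p = 0.0494, and 0.379 without the replicate term) and 0.36 ± 0.16 for Rbmxl1 (adjusted p = 0.217).

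These calls were sensitive to single libraries. Over 16 fits that each left out 1 library or 1 replicate number, Ccnb2 was called in 7, Plk1 in 6 and Pttg1 in 6. Their log2 changes ran from 0.19 to 0.39 for Ccnb2, lowest without replicate number 3, and from 0.25 to 0.52 for Plk1 and 0.33 to 0.70 for Pttg1, both lowest without scramble replicate 3. In the Rbmxl1 knockdown the same fits gave 0.02 to 0.36 for Plk1 and 0.11 to 0.56 for Pttg1, both lowest without replicate number 3, and 0.17 to 0.36 for Ccnb2, lowest without scramble replicate 3. All 3 were highest without replicate number 2, where Plk1 and Ccnb2 were called, beside 3.93% of all genes, and Pttg1 was called in none of the 16. For the Rbmx knockdown, no member was called without Rbmx knockdown replicate 2 or 3, without Rbmxl1 knockdown replicate 4, without scramble replicate 3 or 4, or without replicate number 3 or 4. The count was 1 without Rbmx knockdown replicate 4 (Racgap1) or scramble replicate 1 (Pttg1), where 5.89% and 2.87% of all genes were called. It was 8 without Rbmxl1 knockdown replicate 2, 6 without replicate number 2 and 5 without scramble replicate 2. Of all genes, 10.7%, 5.39% and 6% were called in those 3 fits, and 0.831% to 6.12% in the fits that called no member.

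**Figure D2:**
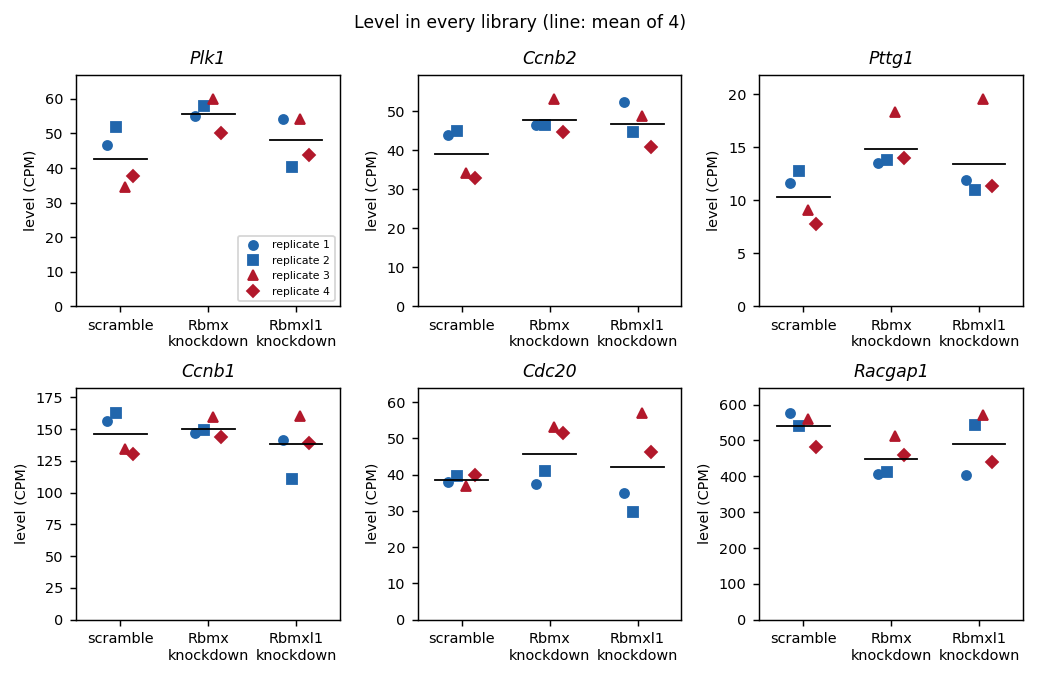
Level in CPM (y axis, from 0) of 6 members in each of the 12 libraries, by group (x axis). Symbols give the replicate number, blue for 1 and 2 and red for 3 and 4, and lines give group means. In scramble, red points lie below blue ones for Plk1, Ccnb2, Pttg1 and Ccnb1, as at 34.5 and 37.7 against 46.5 and 51.8 CPM for Plk1.

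Among the early members, Ccnb2 was the only call, and the other entry cyclins had estimates near 0 over the 4 replicates. Ccna2, cyclin A2, measured 145, 159, 146 and 140 CPM in scramble, 139, 147, 160 and 146 in the Rbmx knockdown and 151, 135, 151 and 141 in the Rbmxl1 knockdown, a change of 0.00 ± 0.06 and -0.03 ± 0.06. Ccnb1, cyclin B1, measured 157, 163, 135 and 130 CPM in scramble, 147, 150, 159 and 144 in the Rbmx knockdown and 142, 111, 160 and 139 in the Rbmxl1 knockdown. The groups overlapped for both cyclins, and Rbmxl1 knockdown replicate 2 held the lowest Ccnb1 value. Cdk1, their kinase partner, measured 148, 155, 131 and 132 CPM in scramble, 158, 164, 162 and 145 in the Rbmx knockdown and 166, 140, 154 and 143 in the Rbmxl1 knockdown. It was higher in 4 of 4 Rbmx pairs, with a change of 0.15 ± 0.06 that missed the threshold (edgeR adjusted p = 0.147). Top2a measured 881, 914, 801 and 782 CPM in scramble, 940, 944, 902 and 784 in the Rbmx knockdown and 1081, 885, 798 and 776 in the Rbmxl1 knockdown. Its change was 0.08 ± 0.07 and 0.06 ± 0.07, and all 3 groups overlapped. Cdc25b, a phosphatase that activates CDK1, lay at 64.7 to 70.4 CPM in scramble and 72.4 to 83.2 in the Rbmx knockdown, which did not overlap (0.19 ± 0.07, adjusted p = 0.0880). Foxm1, the transcription factor of G2/M genes, lay at 163 to 172, 146 to 168 and 145 to 155 CPM in the 3 groups. It was lower in 4 of 4 pairs of both knockdowns, by -0.13 ± 0.06 (adjusted p = 0.149) and -0.16 ± 0.06 (adjusted p = 0.111).

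Among the middle members, the kinase genes Plk1 and Aurka had the largest estimates in the Rbmx knockdown. Aurka, the spindle pole kinase, measured 41.9, 42.7, 34.6 and 33.9 CPM in scramble, 44.0, 46.3, 52.8 and 44.9 in the Rbmx knockdown and 36.9, 33.1, 48.1 and 40.8 in the Rbmxl1 knockdown. All 4 Rbmx values were above all scramble values, and the change of 0.29 ± 0.10 had an adjusted p of 0.0899 by edgeR and 0.0411 by DESeq2. Over the 16 leave-out fits it ran from 0.17, without scramble replicate 3, to 0.39, and was called in 3. Ndc80, the kinetochore subunit that binds microtubules, measured 30.8, 33.0, 25.9 and 25.8 CPM in scramble, 27.8, 27.7, 28.6 and 29.5 in the Rbmx knockdown and 30.8, 28.0, 24.3 and 23.2 in the Rbmxl1 knockdown. Bub1, a checkpoint kinase, measured 67.0, 67.3, 62.8 and 61.6 CPM in scramble, 64.3, 67.3, 77.6 and 61.0 in the Rbmx knockdown and 68.4, 61.9, 66.9 and 60.0 in the Rbmxl1 knockdown. Both genes overlapped between groups, with changes of -0.01 ± 0.08 and 0.06 ± 0.07 for Rbmx. Nuf2, the partner of NDC80 in the same complex, lay at 62.3 to 65.0 CPM in scramble, 57.0 to 61.7 in the Rbmx knockdown and 55.1 to 58.3 in the Rbmxl1 knockdown. Neither knockdown overlapped scramble, with changes of -0.10 ± 0.05 (adjusted p = 0.241) and -0.16 ± 0.05 (adjusted p = 0.110). By role, no member was called in the Rbmx knockdown among 6 kinetochore and centromere genes (median 0.08), 4 checkpoint genes (0.04), 7 spindle motor and assembly genes (0.09) and 4 chromosomal passenger genes (-0.03). With 8.35% of all genes called, groups this small would hold few calls at the background.

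Among the late members, Pttg1 was the only call in the model with all libraries. Cdc20, the activator of the anaphase-promoting complex, measured 38.1, 39.6, 37.0 and 39.8 CPM in scramble, 37.5, 40.9, 53.1 and 51.5 in the Rbmx knockdown and 34.9, 29.7, 57.1 and 46.2 in the Rbmxl1 knockdown. Replicates 3 and 4 of both knockdowns were above every scramble library, and of replicates 1 and 2 this held for Rbmx replicate 2 alone. Prc1, which bundles central spindle microtubules, measured 128, 134, 124 and 122 CPM in scramble, 120, 141, 160 and 137 in the Rbmx knockdown and 127, 117, 153 and 127 in the Rbmxl1 knockdown. Kif23, the motor of centralspindlin, measured 71.4, 67.9, 57.3 and 55.1 CPM in scramble, 60.1, 63.9, 74.2 and 67.9 in the Rbmx knockdown and 60.9, 63.0, 70.4 and 56.2 in the Rbmxl1 knockdown. Changes in the Rbmx knockdown were 0.22 ± 0.11 for Cdc20, 0.13 ± 0.07 for Prc1 and 0.08 ± 0.09 for Kif23, none called. Racgap1, singled out after its values were seen, went the other way, at 578, 541, 561 and 482 CPM in scramble, 406, 411, 512 and 459 in the Rbmx knockdown and 403, 543, 570 and 440 in the Rbmxl1 knockdown. It was lower in 4 of 4 Rbmx pairs, by -0.28 ± 0.08 with an adjusted p of 0.0533 by edgeR and 0.0130 by DESeq2. Fitted separately, the change was -0.45 in replicates 1 and 2 and -0.11 in replicates 3 and 4. Over the 16 leave-out fits Racgap1 ran from -0.35 to -0.17, nearest 0 without scramble replicate 1, and was called in 3. Cdc20 ran from 0.09 to 0.33 and Prc1 from 0.05 to 0.20, both lowest without scramble replicate 3 and called in none.

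In the Rbmxl1 knockdown no member was called by edgeR over all libraries, against 4.46% of all genes. The background was 2.25% higher and 2.2% lower. An unadjusted p under 0.05 was reached by 6 members, 3 higher and 3 lower, and by 19.8% of all genes. DESeq2 called 1 member, Ccnb2, and 7.28% of all genes. No member lay wholly above scramble (2.88% of all genes did), and Foxm1 and Nuf2 lay wholly below it (2.79%). Estimates were above 0 for 25 of 44 members (51.4% of all genes), with a median of 0.04 against 0.01 for all genes. Compared directly, the knockdowns gave no called member by edgeR or DESeq2, with 1 and 4 members at an unadjusted p under 0.05. The background there was 0.0114% by edgeR and 0.0569% by DESeq2, and 5.7% and 5.05% at the unadjusted threshold. The members' median difference, Rbmx minus Rbmxl1, was 0.07, and 34 of 44 were above 0 (48.8% of all genes). The largest direct difference was that of Aurka, 0.24 ± 0.10 (adjusted p = 0.859). Both knockdowns are set against the same scramble libraries, so their changes are not independent.

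**Figure D3:**
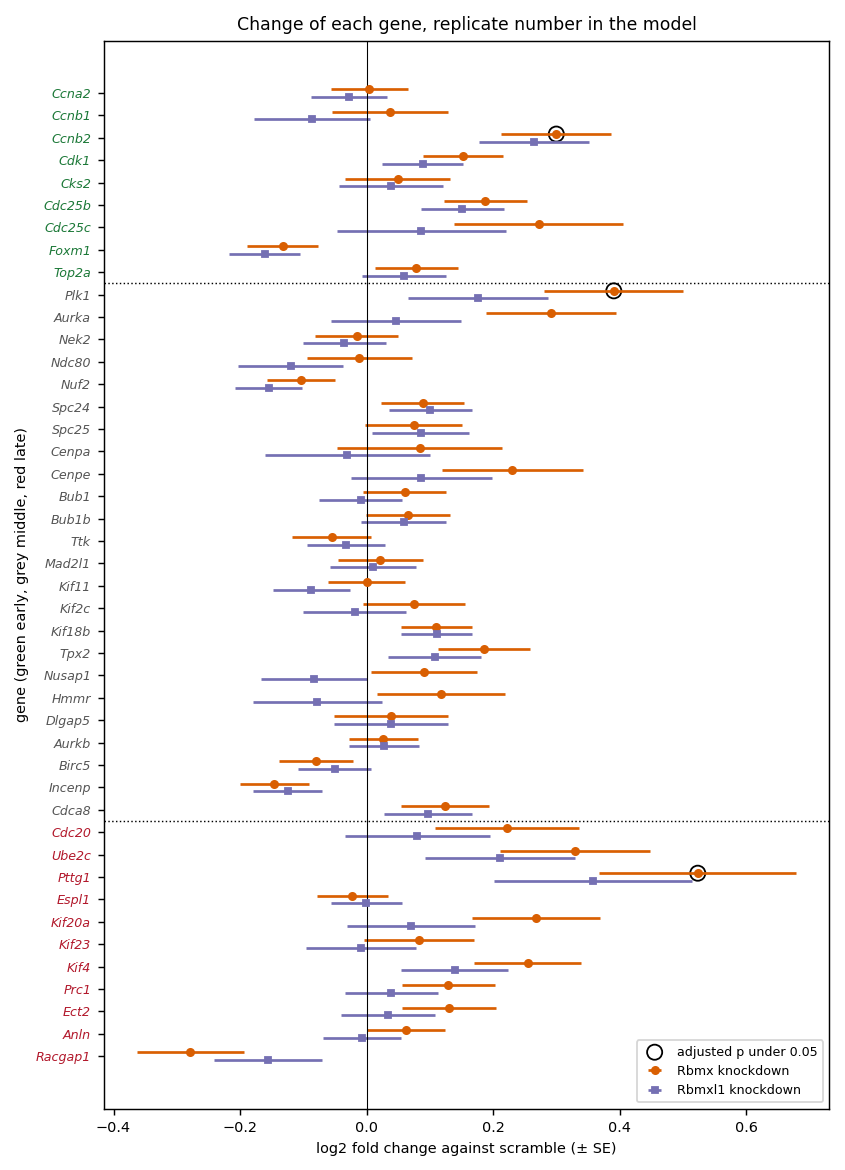
Log2 fold change against scramble (x axis, with SE) of each of the 44 genes (y axis) in the Rbmx (orange) and Rbmxl1 (violet) knockdowns, from the edgeR model with the replicate number. Open circles ring the 3 called genes, Ccnb2, Plk1 and Pttg1, and Racgap1 is the lowest at -0.28.

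Signs of the differences from scramble were counted in each same-numbered pair. Of 44 members, 18 and 14 were higher in the Rbmx knockdown in replicates 1 and 2, and 38 and 35 in replicates 3 and 4. Over all genes these shares were 48.2%, 48.6%, 52.3% and 51.7%. For the Rbmxl1 knockdown the members counted 25, 3, 34 and 28 of 44 in replicates 1 to 4, beside 49.6%, 51.1%, 50.6% and 51.8% of all genes. Replicate 2 of the Rbmxl1 knockdown was thus below scramble replicate 2 in nearly the whole set. Centred on each member's mean over the 12 libraries, the members' median log2 level was -0.11 in that library, 0.05 in scramble replicate 2 and -0.11 in both scramble replicates 3 and 4. In all 4 pairs, 9 members were higher in the Rbmx knockdown (17.7% of all genes were) and 4 were lower (16.8%). Those counts were 1 (13.4%) and 4 (12.6%) for Rbmxl1. The labels give no batch or date for this split, which was seen in the correlations between libraries.

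**Figure D4:**
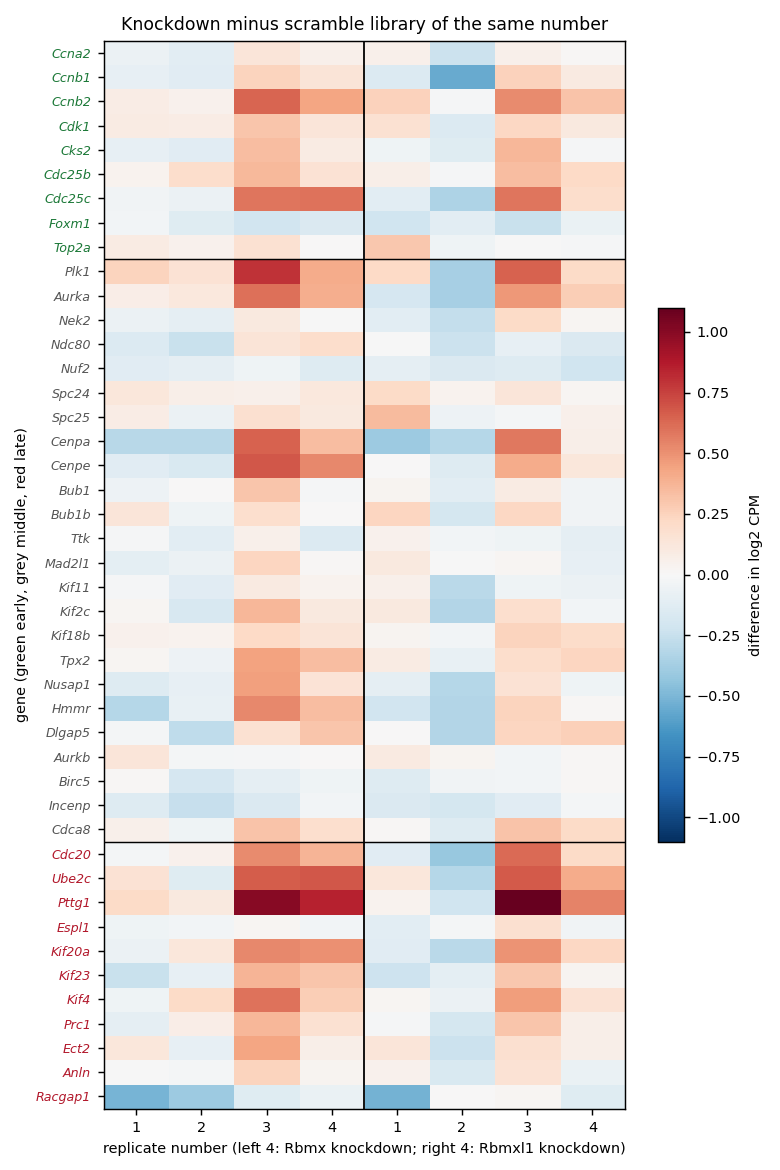
Difference in log2 CPM between each knockdown library and the scramble library of the same number (colour), for the 44 genes (y axis) in replicates 1 to 4 of the Rbmx knockdown and of the Rbmxl1 knockdown (x axis). Replicate 3 has the highest median difference in each knockdown, 0.30 for Rbmx and 0.22 for Rbmxl1, and the Rbmxl1 replicate 2 column is blue, with 3 above 0.

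Fitted alone, the 6 libraries of replicates 3 and 4 gave 19 members that rose in the Rbmx knockdown and none that fell. The background there was 10.1% of genes called, 4.91% higher. The 19 included the entry genes Ccnb2, Cdk1, Cdc25b and Cdc25c, the kinases Plk1 and Aurka, and the centromere genes Cenpa and Cenpe. They also included the spindle assembly genes Tpx2, Nusap1 and Hmmr, the passenger subunit gene Cdca8, the exit genes Cdc20, Ube2c and Pttg1, and the cytokinesis genes Kif20a, Kif23, Kif4 and Prc1. None of the 4 checkpoint genes was called (lowest edgeR adjusted p = 0.301), nor was Top2a (adjusted p = 0.509). In replicates 1 and 2 alone none was called, 3 had an unadjusted p under 0.05, all lower, and the background was 0.023% (18.5% at the unadjusted threshold). Estimates were above 0 for 36 members in replicates 3 and 4 (51.9% of all genes) and for 19 in replicates 1 and 2 (49.1%). The members' median was 0.21 in replicates 3 and 4 and -0.03 in replicates 1 and 2.

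The largest change in replicates 3 and 4 was that of Pttg1, 0.92 ± 0.13 (edgeR adjusted p = 0.000261). Ube2c, the ubiquitin-conjugating enzyme of the anaphase-promoting complex, changed by 0.67 ± 0.08 (adjusted p = 9.02e-05) and the kinetochore motor gene Cenpe by 0.60 ± 0.08 (adjusted p = 0.000189). In replicates 1 and 2 the same genes changed by 0.17, 0.02 and -0.14. Cenpe measured 56.2, 55.5, 38.6 and 42.9 CPM in scramble, 51.6, 49.4, 62.0 and 61.7 in the Rbmx knockdown and 56.4, 50.3, 51.1 and 46.6 in the Rbmxl1 knockdown. In the Rbmx pairs it was lower in replicates 1 and 2 and higher in replicates 3 and 4.

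Late members had the largest share of calls in replicates 3 and 4 of the Rbmx knockdown, 7 of 11 with a median of 0.33. The early members had 4 of 9 (median 0.21) and the middle ones 8 of 24 (median 0.15), beside 10.1% of all genes called in either direction and 4.91% higher. The difference between these steps was not tested. For Rbmxl1, replicates 3 and 4 gave 10 called members, all higher, beside a background of 5.53% of genes (2.8% higher). They were 2 of 9 early (Ccnb2, Cdc25b), 3 of 24 middle (Plk1, Aurka, Cdca8) and 5 of 11 late members (Cdc20, Ube2c, Pttg1, Kif20a, Kif4). In replicates 1 and 2 none was called (background 0.172%), 5 had an unadjusted p under 0.05, all lower (13.4% of all genes), and all 11 late members had estimates below 0. In replicates 3 and 4, 10 of those 11 were above 0. Over the set, 33 of 44 estimates were above 0 in replicates 3 and 4 (50% of all genes) and 12 in replicates 1 and 2 (52.5%).

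The difference between the replicate sets was tested in its own term, and no member was called for either knockdown (background 0% for both). For Rbmx, 23 members had an unadjusted p under 0.05, all with a higher change in replicates 3 and 4, where 11.1% of all genes had one in either direction. For Rbmxl1 it was 20 members, all higher, and 8.36% of all genes. The estimate was above 0 for 41 members (54.9% of all genes) and 36 members (52.5%). The strongest was Cenpe in the Rbmx knockdown, with a difference of 0.75 ± 0.12 (adjusted p = 0.0547). Cenpa, the centromeric histone gene, had the largest difference there, 0.79 ± 0.15 (adjusted p = 0.109). In the Rbmxl1 knockdown the lowest adjusted p was 0.169, for Aurka (0.64 ± 0.12). Without Rbmxl1 knockdown replicate 1, 5 members were called for Rbmx and 6 for Rbmxl1, beside 0.842% and 0.312% of all genes. Without Rbmxl1 knockdown replicate 2, 5 were called for Rbmx and 0 for Rbmxl1, beside 0.85% and 0.543%.

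**Figure D5:**
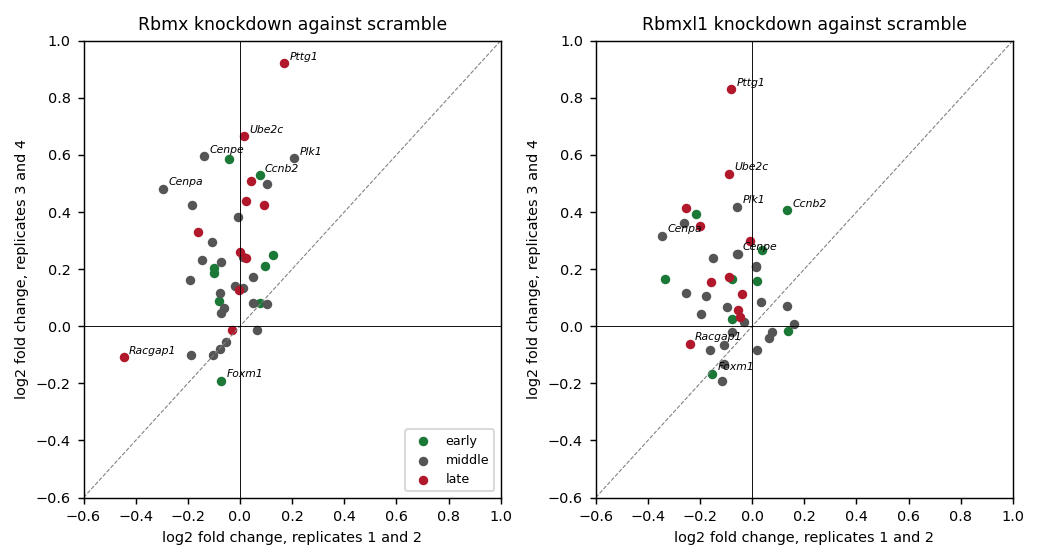
Log2 fold change of the 44 genes in replicates 3 and 4 (y axis) against that in replicates 1 and 2 (x axis), for the Rbmx (left) and Rbmxl1 (right) knockdown; the dashed line marks equal change. Most points lie above the line, and Pttg1 is highest, at 0.92 and 0.83 on the y axis.

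Scramble itself differed between the sets. In 27 of 44 members both scramble replicates 3 and 4 lay below both replicates 1 and 2, as they did for 32.4% of all genes. The median log2 ratio of replicates 3 and 4 over 1 and 2 was -0.15 in scramble, 0.13 in the Rbmx knockdown and 0.04 in the Rbmxl1 knockdown. In the Rbmx knockdown, 20 members had both later-numbered libraries above the other pair (36.9% of all genes), and in the Rbmxl1 knockdown 16 did (30.1%). In the same order of groups, the medians were -0.18, 0.03 and -0.01 for the early members, -0.15, 0.09 and -0.02 for the middle ones and -0.10, 0.19 and 0.20 for the late ones. The share of reads outside annotated features also moved with the sets, 26.3% to 29.2% in replicates 1 and 2 and 30.8% to 32.2% in replicates 3 and 4. Its part in the result was not tested.

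Other genes of the pathway were read from lists chosen by function. Of 80 further mitotic genes, all tested, 1 rose and 7 fell in the Rbmx knockdown and 1 rose and 2 fell in the Rbmxl1 knockdown, with medians of -0.02 in both. Over all genes 4.16% rose and 4.19% fell in the Rbmx knockdown, and 2.25% and 2.2% in the Rbmxl1 knockdown. In replicates 3 and 4 alone, 9 of the 80 rose and 5 fell for Rbmx (10.1% of all genes called), and 1 rose and 6 fell for Rbmxl1 (5.53%). In replicates 1 and 2 alone none of the 80 was called in either knockdown, where 0.023% (Rbmx) and 0.172% (Rbmxl1) of all genes were called. Among the 80, 28 further kinetochore genes held the riser, Cenpm, and 4 of those that fell, Cenph, Cenpi, Dsn1 and Nsl1, with a median of -0.13 in the Rbmx knockdown. These 5 calls among 28 genes stand beside 8.35% of all genes, and no test compares the list with other genes. In replicates 3 and 4 alone 6 of the 28 rose and 3 fell in the Rbmx knockdown. Cenpm, Cenph and Cenpi belong to the constitutive centromere network and Dsn1 and Nsl1 to the MIS12 complex. In the Rbmx knockdown Cenph changed by -0.41 ± 0.10, Cenpi by -0.30 ± 0.07, Dsn1 by -0.24 ± 0.06, Nsl1 by -0.21 ± 0.05 and Cenpm by 0.29 ± 0.06. Cenpm measured 29.2, 30.2, 42.9 and 42.5 CPM in scramble and 36.3, 35.4, 53.0 and 52.0 in the Rbmx knockdown. In the Rbmxl1 knockdown it measured 36.4, 38.0, 45.7 and 53.6 CPM. The condensin II gene Ncapg2 changed by -0.21 ± 0.05, the spindle motor gene Kif15 by -0.28 ± 0.07, and Fbxo5, the inhibitor of the anaphase-promoting complex in interphase, by -0.24 ± 0.06. The adjusted p-values of these genes by edgeR in the Rbmx knockdown were between 0.0154 (Cenpm) and 0.0322 (Kif15). None of them was called without the replicate term, where 0.00569% of all genes were called. Of these genes, Cenpm, Cenpi and Fbxo5 were also the calls in the Rbmxl1 knockdown. There Cenpm changed by 0.27 ± 0.06 (edgeR adjusted p = 0.0289), Cenpi by -0.33 ± 0.07 (0.0189) and Fbxo5 by -0.26 ± 0.06 (0.0173).

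Calls among the regulator, G1/S and CDK inhibitor lists stand beside 8.35% of all genes in the Rbmx and 4.46% in the Rbmxl1 knockdown. Of 14 regulators upstream of the set, Nfya, the DNA-binding subunit gene of NF-Y, rose in both knockdowns, by 0.29 ± 0.06 in the Rbmx (adjusted p = 0.0109) and 0.29 ± 0.06 in the Rbmxl1 knockdown (adjusted p = 0.0165). It measured 79.5, 69.8, 63.2 and 67.3 CPM in scramble, 92.3, 86.8, 85.9 and 76.1 in the Rbmx knockdown and 88.1, 87.3, 82.4 and 82.3 in the Rbmxl1 knockdown. Tfdp1, a partner of E2F factors, fell by 0.29 ± 0.07 in the Rbmx knockdown. Mybl2, which encodes B-MYB, changed by 0.05 ± 0.05. Of 10 tested G1/S genes, the D-type cyclin gene Ccnd3 rose by 0.24 ± 0.06 and 0.43 ± 0.06 in the Rbmx and Rbmxl1 knockdown, and Cdk2 fell by 0.28 ± 0.08 in the Rbmx knockdown. Ccne1, cyclin E1, changed by -0.11 ± 0.07. None of 5 tested CDK inhibitor genes was called, with Cdkn1a (p21) at 0.05 ± 0.07. The proliferation marker gene Mki67 measured 572, 581, 455 and 475 CPM in scramble, 520, 526, 508 and 486 in the Rbmx knockdown and 616, 578, 443 and 461 in the Rbmxl1 knockdown, a change of -0.02 ± 0.07 and 0.01 ± 0.07. Ccnf, cyclin F, changed by 0.09 ± 0.06 in the Rbmx knockdown. Without the replicate term none of these genes was called in either knockdown, and in each 0.00569% of all genes were called. In that fit the edgeR adjusted p in the Rbmxl1 knockdown was 0.373 for Nfya and 0.362 for Ccnd3.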

How the data were processed

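RNA-seq counts of 12 libraries, 4 per group, were analysed. The authors deposited raw counts per Ensembl gene identifier, 1 whole number per gene and library. The submitters' processing notes name cutadapt 1.1037, STAR 2.5.3a, HTSeq 0.6.1p1, R 3.3.2, DESeq2 1.16.1 and build mm10, without their roles. Per the labels' protocols, libraries were stranded and depleted of ribosomal RNA. The annotation and the strand setting are not given in the sources used here. Files end in 5 rows that name no gene (52.3% to 57.4% of each file), left out of library sizes and tests. GENCODE M21 gave names and positions for 55141 identifiers, not 260.

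Genes were kept by edgeR 4.0.16 (filterByExpr, minimum count 10, minimum total 15), scaled by TMM and fitted with group and replicate number (quasi-likelihood F-test, Benjamini-Hochberg adjusted over 17569 genes, called under 0.05). Analyses used R 4.3.3 and limma 3.58.1, and DESeq2 1.42.0 as an alternative. CPM uses TMM-scaled library sizes. Counting error is small at these depths, so the spread between libraries sets the precision.

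Members, roles and lists were chosen with earlier results of these data known. Values in every library are given for called members and for Ccna2, Cdk1, Ccnb1, Ccnb2, Top2a, Plk1, Aurka, Ndc80, Bub1, Cdc20, Prc1 and Kif23. From other lists the 10 called genes of smallest adjusted p are named, with Mki67, Ccnf, Mybl2, Ccne1 and Cdkn1a. Kif15 and Cdk2, called but past the first 10, and Racgap1, Cenpe, Cenpa, Cdc25b, Nuf2, Foxm1 and Ube2c were singled out after their values were seen.

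Pairing by replicate number was checked from deviations from group means (log2 CPM, prior count 2). Libraries of different groups with the same number correlated at 0.20 to 0.52 over 12 pairs. With different numbers, r was 0.10 to 0.43 within the set of replicates 1 and 2 or of replicates 3 and 4 (12 pairs), and -0.57 to -0.13 between sets (24 pairs). The pairing rests on these values alone. The range for the same number overlapped that for other numbers of the same set. The values thus show the split into sets and give little evidence of pairing by number within a set. Centring on group means also builds in part of the negative r between sets. 1 marker gene is not reported here.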

Additional observations from a re-analysis of the deposited data

Results flagged for a closer look

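In each group of 4 libraries, the highest and the lowest level of every member was compared with the spread of the others by Dixon's criterion. Of 132 such groups, 8 held a library far from the rest, where chance gives about 1 in 20. Cdc25b, the CDK1-activating phosphatase gene, stood at 70.4 CPM in scramble replicate 1, with the other 3 libraries at 64.7 to 65.1 CPM. Nuf2, the NDC80 complex subunit gene, stood at 55.1 CPM in Rbmxl1 knockdown replicate 4, with the other 3 libraries at 57.9 to 58.3 CPM. Spc25, another subunit gene of that complex, stood at 34.0 CPM in Rbmx knockdown replicate 3, with the other 3 libraries at 28.6 to 29.5 CPM. Kif11, the bipolar spindle motor gene, stood at 106 CPM in Rbmxl1 knockdown replicate 1, with the other 3 libraries at 85.5 to 88.9 CPM. Kif2c, the microtubule-depolymerizing kinesin gene, stood at 46.0 CPM in Rbmxl1 knockdown replicate 1, with the other 3 libraries at 37.2 to 38.6 CPM. Pttg1, securin, stood at 18.3 CPM in Rbmx knockdown replicate 3, with the other 3 libraries at 13.5 to 14.0 CPM. Pttg1 stood at 19.5 CPM in Rbmxl1 knockdown replicate 3, with the other 3 libraries at 10.96 to 11.9 CPM. Ect2, the exchange factor gene for RhoA in cytokinesis, stood at 93.5 CPM in Rbmxl1 knockdown replicate 2, with the other 3 libraries at 109 to 112 CPM. Replicate 3 was the high library for Pttg1 in both knockdowns, while scramble replicate 3 was below scramble replicates 1 and 2.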

How the results depend on the processing

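The replicate block decides the calls: with no replicate block 0 members were called in the Rbmx knockdown, and the block changed no count in the Rbmxl1 knockdown or the direct comparison, at 0 with and without it. The Rbmx count of 3 became 6 by DESeq2, 10 with no filter on low counts, 0 with replicates 1 and 2 only and 19 with replicates 3 and 4 only. The Rbmxl1 count of 0 became 1 by DESeq2, 2 with no filter and 10 with replicates 3 and 4 only. For the difference between replicate sets, the count of 0 became 1 with RLE size factors (Cenpe) and 6 with no filter for Rbmx, and 7 with no filter for Rbmxl1. Of all genes, no filter called 6.56% (Rbmx), 3.91% (Rbmxl1), 0.802% and 0.513% (the set differences), and RLE 0.0683% (the Rbmx set difference). Leaving out libraries gave 0 to 8 (Rbmx), 0 to 3 (Rbmxl1), 0 to 5 and 0 to 6 (the set differences). The 3 for Rbmxl1 came without replicate number 2, where 3.93% of all genes were called, and the leave-out fits called 0.57% to 5.77%. The direct comparison stayed at 0 under every alternative run. The medians over members moved by less than their spread over pairs, with leave-out ranges of 0.01 to 0.14 (Rbmx), -0.05 to 0.10 (Rbmxl1) and 0.02 to 0.11 (direct). That spread includes the difference between the replicate sets, so it is a wide yardstick. The sign of the median turned with the set. It was -0.03 (Rbmx) and -0.08 (Rbmxl1) with replicates 1 and 2 only, and 0.21 and 0.12 with replicates 3 and 4 only.

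Signs of uncalled changes turned, and the cause was not tested; the largest that did, Pttg1 in the Rbmxl1 knockdown, had been 0.36. In the Rbmx knockdown, replicates 1 and 2 only gave Bub1 -0.019, Ccna2 -0.079, Ccnb1 -0.10 and Kif23 -0.16, replicates 3 and 4 only gave Ndc80 0.16, and a filter of 1 CPM in 4 libraries gave Ccna2 -0.00032. In the Rbmxl1 knockdown, replicates 1 and 2 only gave Aurka -0.26, Cdc20 -0.25, Plk1 -0.056, Prc1 -0.088 and Pttg1 -0.082. Replicates 3 and 4 only gave Bub1 0.015, Ccna2 0.024, Ccnb1 0.17, Kif23 0.16 and Top2a -0.018. On leaving out libraries, ranges crossed 0 for 16 of the 44 members (Rbmx) and 25 (Rbmxl1). Among the members named by rule these were, for Rbmx, Bub1 -0.019 to 0.11, Ccna2 -0.034 to 0.055, Ccnb1 -0.049 to 0.14, Kif23 -0.013 to 0.19, Ndc80 -0.088 to 0.074, and for Rbmxl1, Aurka -0.095 to 0.19, Bub1 -0.066 to 0.030, Ccna2 -0.069 to 0.044, Ccnb1 -0.20 to 0.068, Cdc20 -0.11 to 0.24, Kif23 -0.11 to 0.087, Prc1 -0.047 to 0.12, Top2a -0.028 to 0.10. Over the named members, 475 of the recomputed changes kept direction and side of the threshold, 36 lost the call, 21 gained one and 66 changed sign. Only Plk1, Ccnb2 and Pttg1 in the Rbmx knockdown had a call to lose. The 475 are therefore mostly uncalled changes that stayed uncalled, and are no measure of how stable the calls were. Each replicate set has 6 libraries and few residual degrees of freedom.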

Other observations

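Members with and without the promoter words are described here with no test. The 26 members with either CHR word in a window had a median log2 change of 0.10 in the Rbmx knockdown over all replicates and 0.23 in replicates 3 and 4, and the 9 without one had 0.04 and 0.19. The 27 members with CCAAT had medians of 0.11 and 0.24, and the 8 without had 0.04 and 0.14. Without the 4 members whose only window lay inside the gene's GENCODE span, a restriction chosen after seeing the data, 23 members with a CHR word had medians of 0.08 and 0.21 and 8 without had 0.03 and 0.15. The 25 members with CCAAT then had 0.08 and 0.21, and the 6 without had 0.00 and 0.12.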
